A study of Mus musculus with 6 samples.

Results

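Of the 19924 autosomal H3K4me3 peaks listed for Sox13hi γδ thymocytes, 4847 had no Sox13lo H3K4me3 peak within 5 kb, which is 24.3% of them. These Sox13hi-only peaks were chosen by their position in the 2 H3K4me3 lists alone. The 5 lists of the series hold 74959 peaks. Of the other 15077 autosomal Sox13hi peaks, 13837 overlapped a Sox13lo peak and 1240 lay within 5 kb of one without touching it. The Sox13hi list is the longer one, with 20444 peaks against 18471 on all chromosomes, and at equal list length by score the Sox13hi-only share was 18.3%. The Sox13hi-only peaks were then ranked by the score given to each peak in the authors' list, a number that no source used here defines. The upper 25% by this score, ties included, are called the high-scoring peaks below. They number 1248, with a score of at least 12.75, and the remaining 3599 are called the lower-scoring peaks.

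The cells were γδ T cell precursors from C57BL/6 mice. The labels give their genotype as TCRbeta KO.Sox13 ECFP KI/+, so all groups, Sox13lo included, lack TCRβ and carry a fluorescent reporter in 1 copy of Sox13. CD24+ γδ thymocytes were sorted as CFPhi (Sox13hi) or CFPlo/- (Sox13lo), with 250000 cells for each histone ChIP and 1000000 for the SOX13 ChIP in Sox13hi. Each group has 1 library, so differences between populations cannot be set against a spread between replicates, p-values were not computed, and intervals cover counting error only. No source used here gives the age of the mice, whether they were pooled, or the read depth. The lists name no gene and no mm9 annotation was used, so peaks are named by mm9 position and the identity of the sorted cells was not checked against marker genes.

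H3K4me3 is laid down on the nucleosomes around transcription start sites by SET1 and MLL methyltransferases and marks active and poised promoters. Strong H3K4me3 is usually found at CpG-island promoters, and narrow, weak H3K4me3 also occurs at enhancers. H3K27me3 is made by Polycomb repressive complex 2 at silenced genes, and promoters that carry both marks are called bivalent. SOX13 is an HMG-box transcription factor of the SoxD group that binds in the minor groove of DNA, and in the thymus it marks γδ precursors that give rise to interleukin-17-producing cells.

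Sox13hi-only peaks were weak and narrow members of their own list. Since the lists that chose them also give their score and width, these values describe the peaks and are not tested. Their scores ran from 1.25 to 200.5 with a median of 9.25, against a median of 56 for the other Sox13hi peaks. Only 49 of the 4847 lay above the median of the whole autosomal list, which was 36. High-scoring is therefore meant within the Sox13hi-only peaks and not within the whole list: the median score of the high-scoring peaks was 17, and 25.3% of the whole list scored below the lowest of them. In the lowest-scoring decile of the list 81.5% of peaks were Sox13hi-only, in the fourth decile 29.7%, and in the sixth 2.06%.

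**Figure D1:**
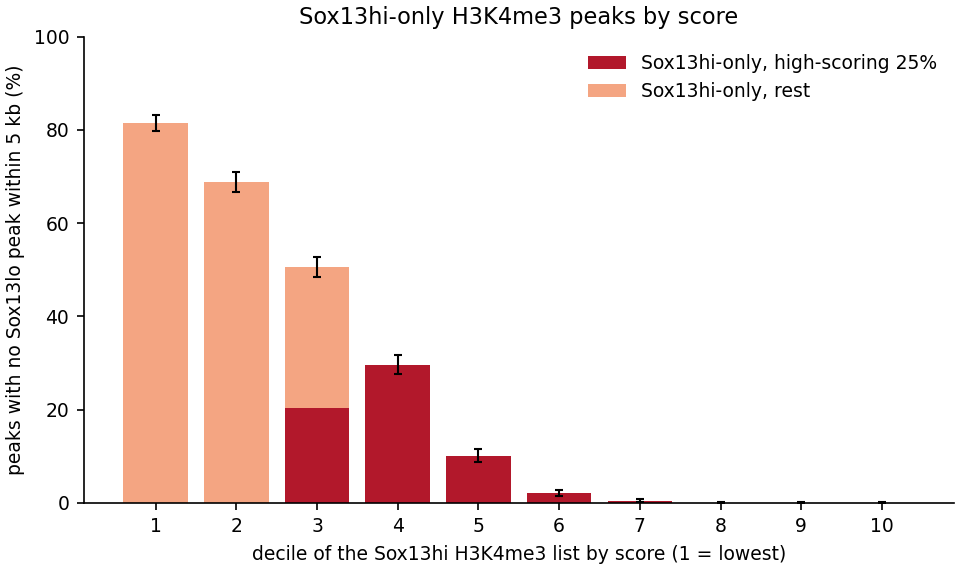
Share of autosomal Sox13hi H3K4me3 peaks with no Sox13lo H3K4me3 peak within 5 kb (y axis, percent), in deciles of the list by score (x axis, lowest first); dark bars are the high-scoring Sox13hi-only peaks, light bars the rest, and error bars exact 95% binomial intervals on the total. The share is 81.5% in the lowest decile and 2.06% in the sixth, and the high-scoring peaks begin within the third decile.

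Widths followed the scores. The median Sox13hi-only peak was 350 bp wide, against 950 bp for the other peaks. High-scoring peaks had a median of 450 bp with quartiles of 400 and 550 bp, and lower-scoring peaks 300 bp with quartiles of 250 and 400 bp. Only 27 Sox13hi-only peaks were wider than 1000 bp, against 6704 of the other peaks, and none was wider than 2000 bp. The score cut falls in a dense part of the score range, with 48 peaks tied at 12.75. Just inside it was chr7:151864351-151864649, 300 bp wide with a score of 12.75, and just below it chr10:129762001-129762549, 550 bp wide with a score one step lower. These peaks were picked from among ties in score. The other peaks picked just inside the cut were 250 and 200 bp wide, and those picked just below it were also 550 bp wide. The picks among ties may thus depend on width, so no relation of width to score at the cut is read from them.

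The gap to the nearest Sox13lo H3K4me3 peak had a median of 45.05 kb. It was 36.8 kb in the high-scoring peaks and 47.95 kb in the lower-scoring peaks. Near the 5 kb limit, 146 Sox13hi-only peaks lay at up to 6 kb and 585 at up to 10 kb. One just outside the limit was chr15:98917801-98918949, 5.05 kb from a Sox13lo peak, 1150 bp wide, with a score of 47.75 and H3K27me3 in both populations. A further 4 peaks lay at exactly 5 kb and were counted with the other peaks, among them chr2:136935501-136935949, 450 bp wide with a score of 14.

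The highest-scoring Sox13hi-only peak stood apart from all others. At chr5:104759851-104761099 it was 1250 bp wide, scored 200.5, which is at the 97.6th percentile of its list, and lay 31.2 kb from the nearest Sox13lo peak. A SOX13 peak of 1800 bp at chr5:104759651-104761449 covered all of it, at the 99.9th percentile of the SOX13 list by score. No H3K27me3 peak of either population overlapped it. The nearest wider H3K4me3 peak of its list, 2150 bp wide, was 575.6 kb away. By these lists strong H3K4me3 and strong SOX13 thus coincided here in Sox13hi cells, with no Sox13lo H3K4me3 peak called nearby. The input signal at this site was not examined, so a technical enrichment common to both ChIPs cannot be told apart.

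Below it the scores closed up. The second, chr1:24740751-24741299, scored 83.75, was 550 bp wide and held a SOX13 peak at the 98.9th percentile of that list. It was followed by chr2:104250001-104251099 at 69.25 and chr9:100999801-101000299 at 65. Neither carried SOX13 or H3K27me3, though an H3K27me3 peak of Sox13hi lay 0.9 kb from the one on chromosome 2. The fifth, chr3:94180801-94182499, scored 62.75 and at 1700 bp was the widest of all Sox13hi-only peaks. It had neither SOX13 nor H3K27me3.

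The next 5 by score were more mixed in what they carried. At chr3:18665601-18666249 (score 62.5) lay a SOX13 peak at the 99.2nd percentile of its list, and no Sox13lo H3K4me3 peak was found within 396.15 kb. The 1300 bp peak at chr17:43766301-43767599 (score 60.75) carried SOX13 and the H3K27me3 of both populations. At chr9:98855901-98857449 (score 56.75, 1550 bp) there were 3 H3K27me3 peaks of Sox13hi, the strongest at the 94.0th percentile of its list, and 2 of Sox13lo, and no SOX13. By these lists the site was bivalent in Sox13hi, whereas in Sox13lo only H3K27me3 was called. The ninth, chr13:70617651-70618699 (score 54), had none of the 3, and the tenth, chr6:112438951-112440049 (score 53.5), carried the H3K27me3 of Sox13lo and not that of Sox13hi. Of these 10 peaks 4 thus held SOX13, a share not compared further since the peaks are few.

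SOX13 was found far more often on high-scoring than on lower-scoring Sox13hi-only peaks. Over all autosomal Sox13hi H3K4me3 peaks 9.14% overlapped a SOX13 peak. Among the high-scoring peaks it was 214 of 1248 (17.1%, 95% exact binomial interval 15.1 to 19.4%) and in the lower-scoring peaks 158 of 3599 (4.39%, 3.74 to 5.11%). The difference was 12.8 percentage points (10.6 to 15.1), and it kept its sign when the lower-scoring peaks were weighted to the widths of 1221 high-scoring peaks (11.8 points, 3.18 to 14.7). All Sox13hi-only peaks together stood at 372 of 4847 (7.67%), against 9.61% of the other peaks, a difference of -1.94 points (-2.81 to -1.02). That deficit turned into an excess of 1.89 points (0.494 to 3.01) once the other peaks were weighted to the scores of the Sox13hi-only peaks, and was 0.471 points (-0.651 to 1.65) with both H3K4me3 lists cut to equal length by score. Weak peaks of both kinds rarely carried SOX13: at scores up to 6 it was 1.78% of Sox13hi-only and 2.14% of other peaks.

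At matched scores the high-scoring peaks carried SOX13 more often than the other Sox13hi peaks. Their 17.1% compared with 8.67% of other peaks weighted to the same score bins, a difference of 8.48 points (6.12 to 10.9). Weighting to width in place of score gave a difference of 7.60 points (5.33 to 9.97). Weighting to score and width together, possible for 1151 of the peaks, gave 16.2% against 13.1%, which is a difference of 3.04 points (0.164 to 5.80). The excess thus shrank when peaks of the same score and the same width were compared.

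Among Sox13hi-only peaks the SOX13 share climbed with the score, and at higher scores it lay above that of the other peaks. In peaks scoring over 8 and up to 10 it was 5.72% for Sox13hi-only and 5.05% for other peaks. Over 15 and up to 20 it was 14.9% against 9.09%, and over 20 and up to 30 it was 22.3% against 10.1%. Over 30 and up to 50, 30 of 101 Sox13hi-only peaks held SOX13 (29.7%, 21.0 to 39.6%) against 8.90% of the other peaks. Above 50 it was 4 of 11, too few to place against the 10.8% of the others.

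**Figure D2:**
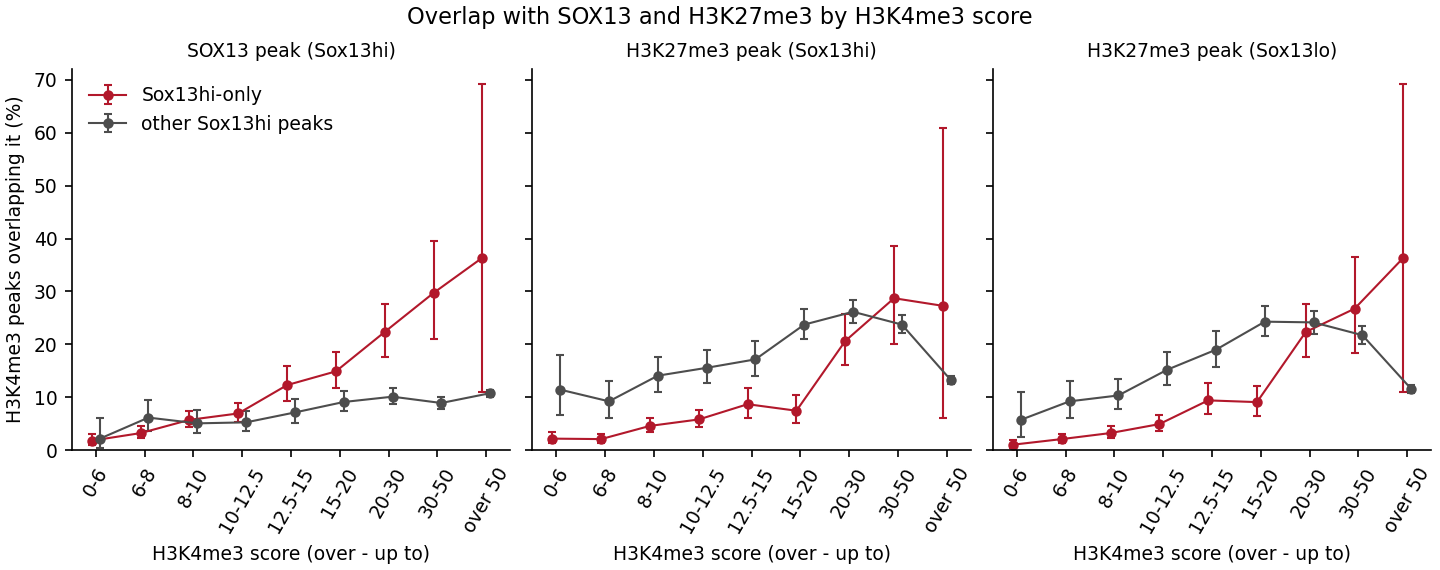
Share of H3K4me3 peaks overlapping a SOX13 peak (left), a Sox13hi H3K27me3 peak (middle) or a Sox13lo H3K27me3 peak (right), in percent, by H3K4me3 score bin on the x axis; red points are Sox13hi-only peaks, grey points the other Sox13hi peaks, and bars exact 95% binomial intervals. For SOX13 the intervals of the 2 curves do not overlap between scores of 15 and 50 (22.3% against 10.1% over 20 and up to 30) and overlap above 50, whereas for H3K27me3 the Sox13hi-only curve starts below the other and meets it above 20.

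The SOX13 peaks on high-scoring sites were themselves strong ones. The 216 SOX13 peaks there had a median score of 14, at the 90.1st percentile of the SOX13 list, and 51.9% of them ranked in its top decile. The 158 on lower-scoring peaks had a median at the 65.9th percentile, with 18.99% in the top decile. On the other Sox13hi peaks the median was at the 78.9th percentile and the top decile held 31.0%. SOX13 peaks away from all Sox13hi H3K4me3 peaks, 11628 in number, had their median at the 44.8th percentile.

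SOX13 sat at the middle of the H3K4me3 peak. Its midpoint lay a median of 75 bp from that of the high-scoring peak, and 86.6% were within 200 bp, although a narrow peak leaves little room for a larger offset. On the other, wider peaks the median offset was 150 bp. A SOX13 peak covered the exact midpoint of 14.3% of high-scoring peaks, 3.61% of lower-scoring peaks and 5.63% of the other peaks. At 1000 bp to the right of the midpoint these shares were 0.561%, 0.222% and 0.378%.

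In the flanks of the peaks the difference was smaller. Over all autosomal Sox13hi H3K4me3 peaks 17.6% had a SOX13 peak on them or within 5 kb, and in the high-scoring peaks it was 25.6% against 11.8% in the lower-scoring peaks. Counting only SOX13 peaks within 5 kb that did not overlap, the shares were 8.41% and 7.39%. The difference of 1.02 points had an interval spanning 0 (-0.712 to 2.90). The other Sox13hi peaks stood at 8.78%. A peak that overlaps SOX13 cannot count as flanking here. Such peaks were more frequent among the high-scoring ones, which lowers the difference of 1.02 points. Among peaks without overlap, 105 of 1034 high-scoring and 266 of 3441 lower-scoring peaks had flanking SOX13, with no interval computed. The contrast was thus largest in direct overlap. By these counts flanking SOX13 was also the more frequent among high-scoring peaks without overlap, and whether this exceeds counting error was not tested.

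**Figure D3:**
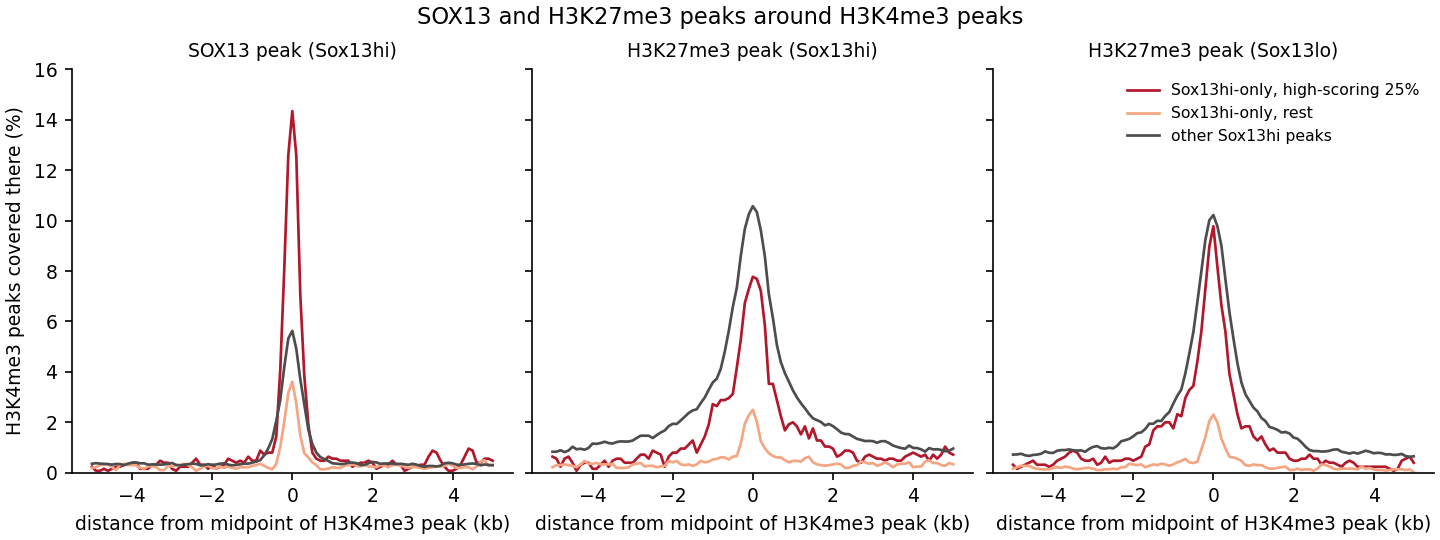
Share of H3K4me3 peaks covered by a SOX13 peak (left), a Sox13hi H3K27me3 peak (middle) or a Sox13lo H3K27me3 peak (right) at each distance from the H3K4me3 midpoint (x axis, kb; y axis, percent); dark red is the high-scoring Sox13hi-only peaks, light red the rest, grey the other Sox13hi peaks. SOX13 reaches 14.3% at the midpoint of high-scoring peaks and is at 0.561% 1000 bp to the right, whereas the H3K27me3 curves are wider and highest for the other peaks.

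The strongest of the SOX13-bearing sites beyond those already named was chr17:88719451-88720249, 800 bp wide with a score of 47, whose SOX13 peak was at the 99.3rd percentile of its list. It lay 17.55 kb from a Sox13lo H3K4me3 peak and had no H3K27me3. The 5 highest-scoring Sox13hi-only peaks with SOX13 all had a SOX13 peak at or above the 90.1st percentile, and on 4 of them it was at or above the 98.9th.

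The same SOX13 list was laid over the mirror set, 2853 autosomal Sox13lo H3K4me3 peaks with no Sox13hi peak within 5 kb. SOX13 itself was profiled in Sox13hi cells, and no SOX13 list of Sox13lo was analysed here. In the upper 25% of the Sox13lo-only peaks, 714 with a score of at least 16.25, the SOX13 share was 16.1%. The difference from the high-scoring Sox13hi-only peaks was 1.04 points (-2.52 to 4.47). In the Sox13lo-only set the step from lower-scoring to high-scoring peaks was 10.5 points (7.67 to 13.5), against 12.8 in the Sox13hi-only set, and the 2 steps differed by 2.26 points (-1.49 to 5.91). The intervals span 0 and reach 4.47 and 5.91 points, so the SOX13 share of high-scoring peaks was not shown to be particular to peaks found only in Sox13hi.

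H3K27me3 was rarer on Sox13hi-only peaks than on the rest of the list, in the H3K27me3 data of both populations. Over all autosomal Sox13hi H3K4me3 peaks, 14.4% overlapped an H3K27me3 peak of Sox13hi and 13.1% one of Sox13lo. Among Sox13hi-only peaks the shares were 5.96% (289 peaks) and 5.65% (274 peaks), which differ from those of the other peaks by -11.1 points (-12.0 to -10.2) and -9.87 points (-10.7 to -8.98). With the other peaks weighted to the same scores, the differences were -8.91 points (-10.7 to -7.40) and -7.53 points (-9.18 to -6.17). Among peaks scoring over 20 the order was the other way. The Sox13hi H3K27me3 was on 22.8% of the 403 Sox13hi-only peaks there and 17.0% of the others (5.83 points, 1.76 to 10.3). For the Sox13lo H3K27me3 it was 23.8% against 15.2% (8.62 points, 4.49 to 13.1). Scores were not matched in this range, with medians of 24.75 and 70. Over 20 and up to 30 the Sox13hi H3K27me3 was on 20.6% against 26.1%.

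Within the set, H3K27me3 was more frequent in the high-scoring peaks. It covered part of 160 high-scoring peaks in the Sox13hi data (12.8%, 11.01 to 14.8%) against 129 lower-scoring peaks (3.58%). In the Sox13lo data it was 174 (13.9%, 12.1 to 15.99%) against 100 (2.78%). The differences were 9.24 points (7.31 to 11.3) and 11.2 points (9.20 to 13.3). Both moved with width: weighted to the widths of the high-scoring peaks, they became -2.43 points (-7.57 to 5.45) and 1.92 points (-2.46 to 9.41). Over 700 and up to 1000 bp, 89 of the 90 Sox13hi-only peaks were high-scoring, so a lone lower-scoring peak stands for that bin. That peak carried the H3K27me3 of both populations and weighs heavily in these values. In width bins with at least 20 peaks in each class the differences were 2.001 points (-3.50 to 5.58) and 6.82 points (2.15 to 9.19). Unlike for SOX13, the H3K27me3 difference in the Sox13hi data was therefore not distinguishable from 0 at equal width. In the Sox13lo data its interval lay above 0 in the bins with at least 20 peaks and spanned 0 over all bins.

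Of the 413 Sox13hi-only peaks with H3K27me3 (8.52%), 150 had it in both populations, 139 in Sox13hi and not in Sox13lo, and 124 in Sox13lo and not in Sox13hi. Over the whole autosomal list H3K27me3 of either population was on 17.2%, and it was called in both on 10.3%, in Sox13hi alone on 4.03% and in Sox13lo alone on 2.79%. H3K27me3 in both populations was the class most reduced here, at 3.09% against 12.7% of the other peaks (-9.57 points, -10.3 to -8.82). The Sox13hi H3K27me3 list is the longer one, with 14842 peaks against 7395. Among the high-scoring peaks the counts were 100, 60 and 74, so there peaks with H3K27me3 in the shorter Sox13lo list alone were not the fewer. That last class, H3K4me3 called only in Sox13hi and H3K27me3 only in Sox13lo, made up 5.93% of the high-scoring peaks (4.68 to 7.39%) and 2.87% of the other peaks. The difference of 3.06 points (1.79 to 4.54) fell to 0.543 points (-0.942 to 2.15) with other peaks of the same widths, and to -0.296 points (-1.95 to 1.42) with other peaks of the same scores. No excess of this class was thus detected against other peaks of like width or score.

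The widest Sox13hi-only peaks were the ones most often marked by H3K27me3. Among the high-scoring peaks, H3K27me3 of either population was found on 8.50% of peaks over 300 and up to 400 bp wide, 27.4% of those over 500 and up to 700 bp, and 48.3% of those over 700 and up to 1000 bp. Among the other Sox13hi peaks it was 22.0%, 26.1% and 19.3% in the same bins. Above 700 bp, a width chosen after seeing the data, 44.4% of the 117 Sox13hi-only peaks carried the Sox13hi H3K27me3 against 16.4% of the other peaks, which is a difference of 28.0 points (18.8 to 37.5). For the Sox13lo H3K27me3 it was 43.6% against 14.6%, a difference of 29.0 points (19.9 to 38.5). A broad H3K4me3 peak without a Sox13lo counterpart was thus H3K27me3-marked more often than other broad peaks, without matching on score. The median score above 700 bp was 29.75 for the Sox13hi-only and 78.75 for the other peaks. Among other peaks of any width, the Sox13hi H3K27me3 share was 26.1% at scores over 20 and up to 30, and 13.3% above 50. Whether the difference holds at equal scores was not tested.

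Over all Sox13hi-only peaks, of any score, the SOX13 share also climbed with width, from 5.36% (4.20 to 6.74%) over 200 and up to 300 bp to 12.0% over 400 and up to 500 bp and 14.5% (10.8 to 18.9%) over 500 and up to 700 bp. With the upper 25% taken by width, SOX13 was more frequent in it than in the rest by 5.41 points (3.79 to 7.08). Within the high-scoring peaks, which are chosen by score, no climb was seen. There the share was 28.0% in the 82 peaks over 200 and up to 300 bp, 16.1% over 400 and up to 500 bp, and 14.6% over 700 and up to 1000 bp. The exact intervals of these shares overlap (18.7 to 39.1% for the narrowest of them), so no order by width is read from them.

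**Figure D4:**
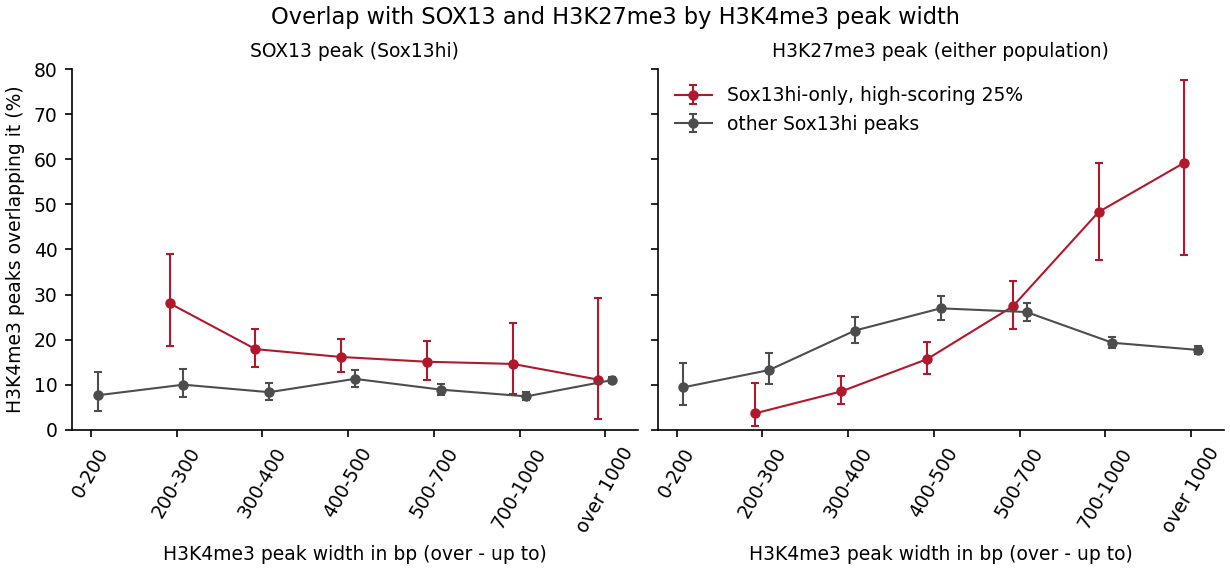
Share of H3K4me3 peaks overlapping a SOX13 peak (left) or an H3K27me3 peak of either population (right), in percent, by H3K4me3 peak width in bp on the x axis; red points are the high-scoring Sox13hi-only peaks (the 9 of up to 200 bp are not drawn), grey points the other Sox13hi peaks, and bars exact 95% binomial intervals. The red H3K27me3 curve rises from 3.66% to 59.3% with width while the red SOX13 curve goes from 28.0% to 11.1%.

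The highest-scoring bivalent sites illustrate the broad class. At chr2:127307351-127308549, 1200 bp wide with a score of 49.25, the Sox13hi H3K27me3 peak was 950 bp wide and at the 95.9th percentile of its list, and the Sox13lo one was 300 bp wide and at the 63.7th. At chr14:68741451-68742899, 1450 bp wide with a score of 48, the Sox13hi list had a 400 bp H3K27me3 peak, and the Sox13lo list had 2, of 700 and 950 bp. A further peak, on chromosome 18, scored 52.5, carried the H3K27me3 of both populations, and lay 0.15 kb from a wider H3K4me3 peak of its list. Of the 3 widest Sox13hi-only peaks, chr3:34562151-34563749 (1600 bp, score 37) and the one on chromosome 9 named above carried the H3K27me3 of both populations, while the widest had none.

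SOX13 and H3K27me3 of either population met on 1.36% of the high-scoring peaks, against 1.78% of the whole autosomal list. The difference from the other peaks was -0.800 points (-1.42 to 0.0408), so the meeting of both was not shown to be rarer here. H3K27me3 of either population was present on 17 of the 214 high-scoring peaks with SOX13 (7.94%) and on 217 of the 1034 without it (21.0%). The difference was -13.0 points (-17.2 to -7.95), and -10.8 points (-15.0 to -5.86) with the peaks lacking SOX13 weighted to the same widths. With the upper 25% taken by width in place of score it was -4.20 points, with an interval from -8.49 to 1.07. Among the other Sox13hi peaks the shares were 22.5% with SOX13 and 19.7% without, a difference of 2.84 points (0.608 to 5.18), and the order depended on width. In other peaks of up to 700 bp, the width of 1132 of the 1248 high-scoring peaks, they were 20.6% and 24.1% (-3.51 points, -7.50 to 0.869), and in wider ones 23.3% and 17.8% (5.51 points, 2.84 to 8.32). Lower-scoring Sox13hi-only peaks showed no clear difference (6.96% against 4.88%, 2.08 points, -1.44 to 7.28). The high-scoring Sox13lo-only peaks showed the same order, with 9.57% against 21.9% (-12.3 points, -18.2 to -4.67).

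The Sox13hi H3K27me3 was on 286 of the 1449 other peaks with SOX13 (19.7%) and on 10 of the 214 high-scoring peaks with SOX13 (4.67%). Over the whole autosomal list, with or without SOX13, it was on 14.4%. Of these 10 the highest-scoring was the chromosome 17 site at 43766301. The H3K27me3 peak there was 1400 bp wide and at the 98.5th percentile of its list, and the SOX13 peak was at the 90.1st. The next, chr12:110691251-110691949, scored 30.25, lay 6.75 kb from a Sox13lo peak and had a SOX13 peak at the 76.2nd percentile. In contrast, the SOX13 peak on chr2:25172601-25172999 was at the 98.5th percentile, and H3K27me3 there was called in Sox13hi and not in Sox13lo. At chr11:53841701-53842499 the SOX13 peak was at the 40.4th percentile. The other 6, on chromosomes 1, 2, 3, 4 and 19, scored between 13 and 30. Strong SOX13 was thus found at some of these doubly marked sites and not at others.

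Carrying neither SOX13 nor H3K27me3 was the commonest state. It held for 4090 of the 4847 Sox13hi-only peaks (84.4%), for 65.5% of the high-scoring peaks and for 90.9% of the lower-scoring peaks, against 72.6% of the other peaks and 75.5% of the whole autosomal list. The high-scoring peaks were thus below the whole list in this share and the lower-scoring ones above it. The 168 Sox13hi H3K27me3 peaks on the high-scoring peaks had a median at the 82.9th percentile of their list by score, and the 184 of Sox13lo at the 67.9th. On the other Sox13hi peaks the medians were higher, at the 86.9th and the 76.1st.

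The nearest larger H3K4me3 peak of the same list, taken as the nearest wider one, was located for each Sox13hi-only peak. Few had one close by. The median gap was 47.75 kb in the high-scoring peaks (quartiles 18.4 and 132.7 kb) and 49.15 kb in the lower-scoring peaks (17.8 and 152.3 kb), a difference of -1.4 kb. When larger meant at least 2 times as wide, the difference was 20.6 kb. High-scoring peaks are themselves wider, so fewer peaks can meet either bar for them, and a longer gap is built into both comparisons. A wider peak lay within 5 kb of 152 Sox13hi-only peaks (3.14%), against 15.9% of the other peaks. The rule itself keeps these peaks away from the many wider peaks that both populations share, so a low share within 5 kb follows in part from the choice. Beyond that limit the wider peak was at up to 20 kb for 24.2%, over 20 and up to 100 kb for 39.7%, and farther for 33.0%. For 102 peaks it was over 1 Mb away.

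**Figure D5:**
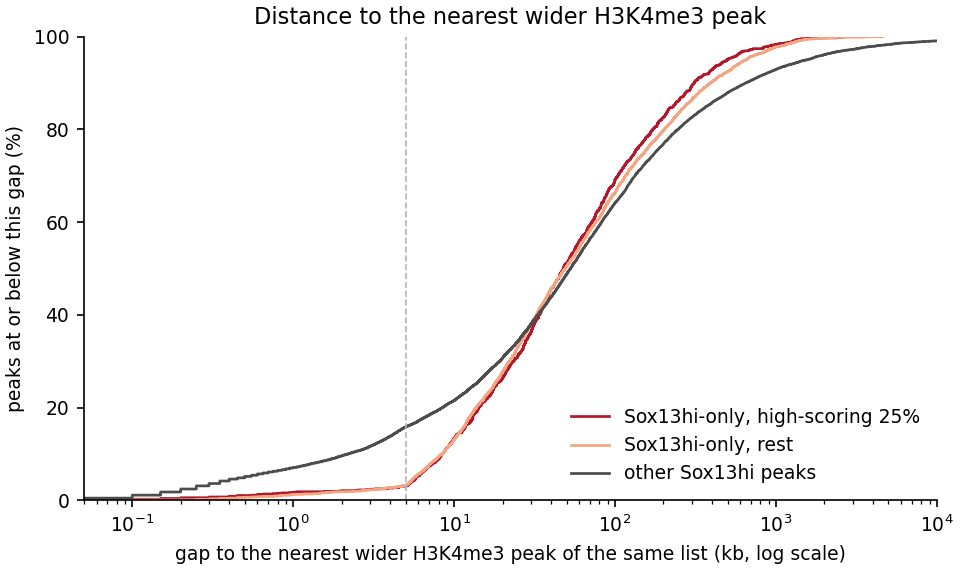
Cumulative share of H3K4me3 peaks (y axis, percent) by the gap to the nearest wider Sox13hi H3K4me3 peak (x axis, kb, log scale), for the high-scoring Sox13hi-only peaks, the rest of them and the other Sox13hi peaks; the dashed line is the 5 kb limit. The medians lie close together at 47.75, 49.15 and 52.75 kb, whereas at 5 kb the curves stand at about 3.14% for Sox13hi-only and 15.9% for the other peaks.

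The wider neighbour was usually a peak with a Sox13lo counterpart within 5 kb. It was itself Sox13hi-only for 11.6% of the high-scoring peaks and 24.2% of the lower-scoring peaks. Its median width was 1050 bp for the high-scoring peaks and 850 bp for the lower-scoring peaks, and it was at least 2 times as wide as the peak itself in 52.3% and 65.5% of cases. SOX13 was on the wider neighbour of 9.78% of high-scoring and 11.1% of lower-scoring peaks (8.18 to 11.6% and 10.1 to 12.2%), so the SOX13 contrast seen on the peaks themselves was not found on their neighbours. The neighbour lay on the side of lower coordinates for 49.7% of Sox13hi-only peaks, so neither side prevailed.

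Most Sox13hi-only peaks had no other one close by. With those within 5 kb of each other joined into runs, 4566 stood alone and 281 (5.80%) fell into 133 runs, of which 121 held 2 peaks, 9 held 3 and 3 held 4. Among the Sox13lo-only peaks 6.48% (5.61 to 7.45%) fell into such runs. Counting any peak of the same list as a neighbour, 6.31% of Sox13hi-only peaks had one within 5 kb, against 29.6% of the other peaks and 23.96% of the whole list, a gap that the rule of choice creates in part. The run at chr3:94178451-94183949 contains the widest Sox13hi-only peak, with a neighbour of 1050 bp and a score of 35.5, preceded by 2 smaller peaks of 300 and 400 bp. Next to it in length, chr19:41101201-41105899 had 3 high-scoring peaks, the highest at 28. At chr15:97547701-97550899 all 4 peaks were lower-scoring, with 11.25 the highest. None of the 3 runs held a SOX13 or an H3K27me3 peak.

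The share of Sox13hi-only peaks varied moderately between chromosomes. It was lowest on chromosome 11, with 283 of 1599 peaks (17.7%, 15.9 to 19.7%), and highest on chromosome 3, with 298 of 994 (29.98%, 27.1 to 32.9%). Chromosome 3 also had the highest SOX13 share in the high-scoring peaks, at 25.7%. Chromosome 19 had the lowest, 1 of 34 peaks (2.94%), together with the highest Sox13hi H3K27me3 share, 9 of 34 (26.5%). With so few peaks per chromosome these extremes are given as values only.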

How the data were processed

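ChIP-seq peak lists of 5 libraries were used, 1 per group. An input library is listed, and no file of it was used. The authors deposited a position and a score for each peak. The score is a positive number near a multiple of 0.25, and was used only to rank peaks within a list. Positions are on mm9, which the submitters' processing notes name. Which aligner, caller, threshold and control were used is not given in the sources used here. Depth is unknown, so a deeper library or a looser threshold in Sox13hi could add peaks without a Sox13lo counterpart. Starts are printed counting from 1, and widths include the last base.

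Gaps were counted between facing ends, and overlap was at least 1 bp. Shares carry exact (Clopper-Pearson) 95% intervals and differences Newcombe-type intervals, which treat peaks as independent. Weighted values average the comparison class over bins of score or width. The overlap code was tested on simulated data and against bedtools 2.31.1. Software was SciPy 1.17.1, pandas 2.3.3, NumPy 2.4.6 and matplotlib 3.10.9 under Python 3.11.15. The peak set, comparisons and settings were chosen with earlier results of these data known.

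Named peaks follow a fixed rule: the 10 highest-scoring, the 5 highest with SOX13 and with Sox13hi H3K27me3, the 3 widest, the high-scoring ones with both, those beside the 5 kb limit and the score cut, and the 3 longest runs. Not all of them are printed. Gene names and sequences were not used, since the tables at hand are on another build.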

Additional observations from a re-analysis of the deposited data

How the results depend on the processing

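Of 131 recomputed values, 114 did not change, meaning for a difference of shares that its direction and whether its interval excludes 0 were as reported, and for the other values that they lay within the interval of the reported one. SOX13 in high-scoring minus lower-scoring peaks ranged from 5.41 to 16.6 points over 12 settings, and minus other peaks at the same scores from 3.04 to 12.9, with all intervals above 0. Both H3K27me3 deficits of Sox13hi-only peaks held in all settings run. The share of Sox13hi-only peaks was 27.9% with a limit of 1 kb, 21.4% with 10 kb, 25.5% with peaks within 1 kb merged, and 18.3% with H3K4me3 lists of equal length. The width difference, 150 bp, was 200 bp for the upper 10%. The difference in distance to the nearest wider peak, -1.4 kb, became 20.6 kb for peaks at least 2 times as wide and 11.2 kb at equal list length. It was 18.1 kb for the upper 10% and 11.5 kb with the upper 25% taken by width. In all of these the bar is higher for the wider class, and how much of each difference follows from it was not tested. SOX13 in Sox13hi-only minus other peaks reversed to 1.89 points at equal scores and 0.471 (-0.651 to 1.65) at equal list length. The H3K27me3 contrast of high-scoring and lower-scoring peaks at equal widths was -2.43 points in Sox13hi and 1.92 in Sox13lo. In well-filled bins it was 2.001 (-3.50 to 5.58) and 6.82 (2.15 to 9.19). H3K27me3 in Sox13lo alone, high-scoring minus other peaks, was 0.543 at equal widths and -0.296 at equal scores. H3K27me3 with SOX13 minus without was -4.20 points (-8.49 to 1.07) with the upper 25% taken by width. Added after seeing the data were the comparisons with other peaks at the same scores, with Sox13lo-only peaks, of H3K27me3 in Sox13lo alone and of H3K27me3 with and without SOX13, each in all its settings, and the well-filled bins and the removal of ties elsewhere. No paired analysis was possible because every group is a single library, which also leaves no replicate to omit.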
